A study of Mus musculus with 22 samples.

Results

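The comparison set the CD44High cells of the aorta-gonad-mesonephros (AGM) region at embryonic day 11 (E11) against the CD44LowKitNeg cells of the same region and stage. It used 6 of the 22 RNA-seq libraries of the series, 3 of each population, all those of each population at this stage. Each library was made from 25 cells of C57BL/6 mouse embryos, and the labels name no culture, treatment or engineered allele for either population. All 6 carry the same date in their labels. The titles of the CD44High libraries hold a prefix, KG, that those of CD44LowKitNeg lack. Its meaning was not established, so whatever it stands for cannot be told apart from the population. The cells were sorted as VE-Cad positive and then by surface CD44 and Kit: CD44High cells by a high level of CD44, CD44LowKitNeg cells by a low level of CD44 and the absence of Kit. The labels call the CD44High cells haematopoietic stem and progenitor cells and the CD44LowKitNeg cells haemogenic endothelial cells. They do not say whether the libraries of a population came from separate litters, so the p-values measure the spread between these tubes of cells, which may be technical. The question was which genes separated the end point of the endothelial to haematopoietic transition (EHT), as the gates define it, from the CD44-positive endothelium present at the same stage.

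In the EHT, cells of the wall of the dorsal aorta lose their endothelial junctions, round up and become blood cells that carry CD45. The transcription factor RUNX1 is required for this step, and SOX17 and Notch signalling mark the arterial endothelium from which the cells emerge. The E11 AGM also holds blood cells that did not arise there, among them macrophages derived from the yolk sac, which circulate or sit in the tissue around the aorta.

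The CD44LowKitNeg libraries, S11, S12 and S13, held 6323148 to 7625219 counts, and the CD44High libraries, S20, S21 and S22, held 4385865 to 5974244. Between 11491 and 12295 genes were detected per library. The ribosomal RNA gene *Rn45s* took 16.6% to 23.9% of the counts, with the 6 libraries of both populations overlapping. A count of 0 is compatible with up to 3 counts, which corresponded to 0.386 to 0.451 normalized CPM in CD44LowKitNeg and 0.548 to 0.713 in CD44High. These limits cover counting error only. Levels are given as CPM, counts relative to library size after trimmed mean of M-values (TMM) scaling. Differences are log2 fold changes of CD44High over CD44LowKitNeg as fitted by edgeR. Its quasi-likelihood p-values were adjusted over 11245 genes after Benjamini and Hochberg, with a call at an adjusted p under 0.01. Where levels are set against each other, they are those of S11, S12 and S13 against those of S20, S21 and S22, except that for a gene at 0 in every CD44LowKitNeg library the CD44High levels may stand first, before "against 0".

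The sorting genes behaved unequally. *Cdh5*, which encodes VE-Cad, the junction protein used for the gate, was at 807, 1150.2 and 1123 CPM in the CD44LowKitNeg libraries and had 0 counts in each of the CD44High libraries. It was at least 1560-fold lower in CD44High, taken against 3 counts in each library without reads, the limit used for every such bound below (adjusted p = 0.000121, edgeR quasi-likelihood). The surface gate and the mRNA therefore differed for VE-Cad in the CD44High cells: these were collected as VE-Cad positive and held no detectable *Cdh5* transcript. *Cd44*, the hyaluronan receptor, was at 173, 157 and 244 CPM in CD44LowKitNeg and 314, 260.3 and 149 in CD44High, and the ranges overlapped (log2 fold change 0.34, SE 0.34, adjusted p = 0.535). *Kit*, the stem cell factor receptor, was at 56.0, 51.7 and 43.3 against 111, 60.9 and 34.3 CPM, again with overlap (0.45, SE 0.46, adjusted p = 0.528), although CD44LowKitNeg had been gated on the absence of the Kit protein. The populations were thus not told apart by the mRNA of *Cd44* or *Kit* at this number of cells.

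Of the 11245 genes, 1160 were called (10.3%), 535 higher (4.76%) and 625 lower (5.56%) in CD44High. None of the 1160 overlapped between the populations. Non-overlap alone was far more common: the CD44High libraries lay all above the CD44LowKitNeg libraries for 22.9% of the genes tested and all below for 23.5%. Where a list count below has no share beside it, these shares of all genes are the ones to compare. The smallest change called was 1.15 on the log2 scale, and 256 of the genes called higher and 167 of those called lower had no count in the other population. A gene without a count in one population passed the filter on low counts only if every library of the other passed it. Its direction and its non-overlap were thus fixed before the test. With such genes set at their bound, the median log2 fold change was 5.13 among genes called higher and -4.85 among those called lower, and it was -0.023 over all genes tested as fitted. In pools of cells, fewer cells of a type and less RNA per cell cannot be told apart, and this holds for every difference that follows. The calls depended on the number of libraries: 522 genes were called without S11, 609 without S12, 542 without S13, 779 without S20, 706 without S21 and 859 without S22, and no gene called in all libraries changed sign in any of them.

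**Figure D1:**
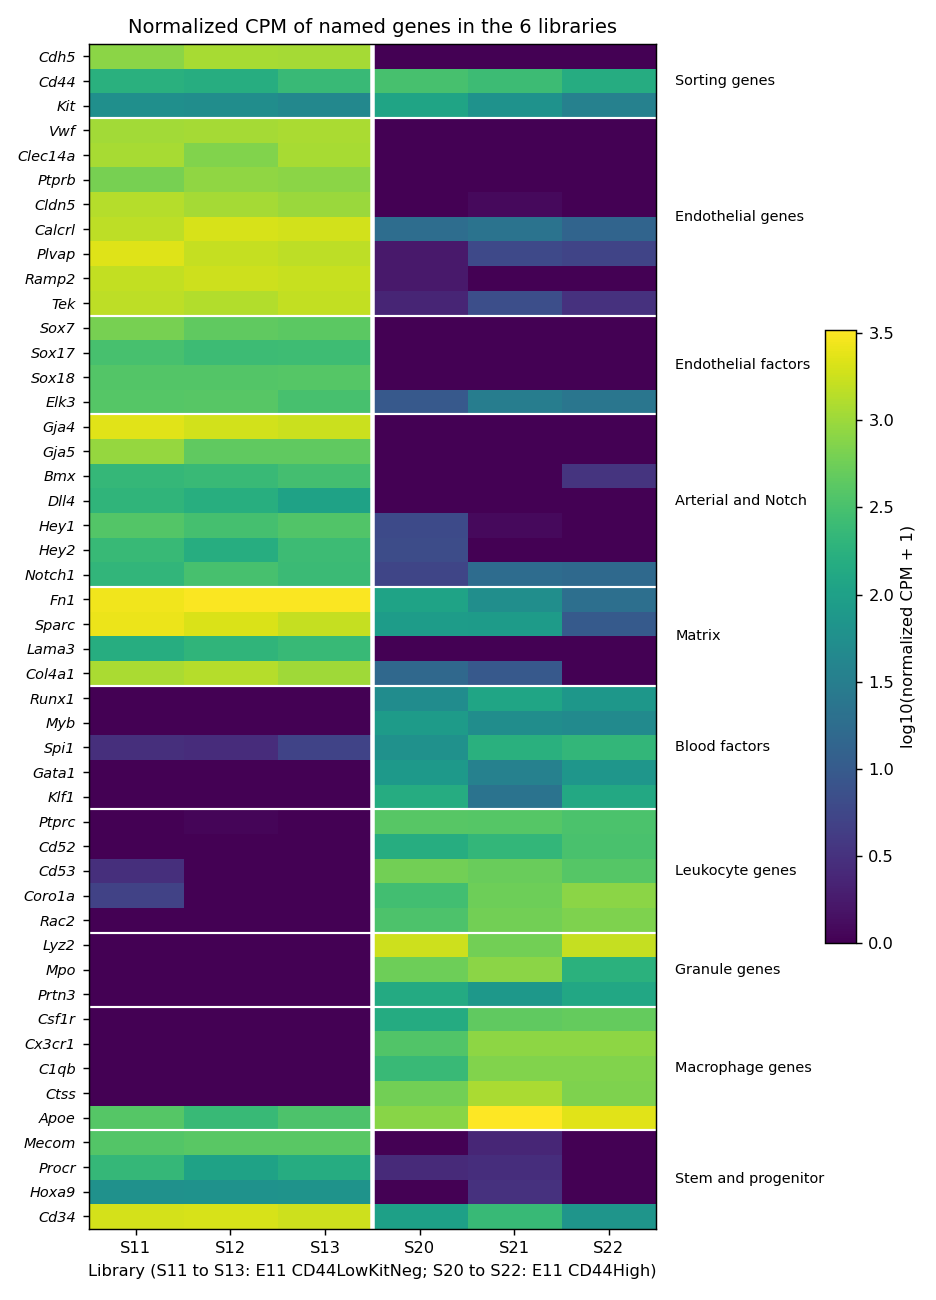
Normalized CPM of named genes (rows, grouped by role) in the 3 E11 CD44LowKitNeg and 3 E11 CD44High libraries (columns), coloured by log10(CPM + 1). Endothelial, arterial and matrix genes are bright on the left and dark on the right, blood genes the reverse, while *Cd44* and *Kit* have similar colours on both sides.

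Endothelial genes fell in CD44High. All 30 tested members of the endothelial list lay below CD44LowKitNeg without overlap and 27 were called lower, against 23.5% and 5.56% of all genes (median with bounds -7.18). Their summed level was 18260 to 21880 CPM in CD44LowKitNeg and 167.4 to 278.4 in CD44High, a difference of 86.6-fold between the means. Outside this list, *Gja4*, encoding the arterial gap junction protein connexin 37, was at 2288, 1890.3 and 1749 CPM in CD44LowKitNeg and at 0 in CD44High, at least 3010-fold lower (adjusted p = 9.26e-05). *Vwf*, encoding von Willebrand factor, fell from 1080.4, 1123 and 1181 CPM to 0 counts, at least 1720-fold (adjusted p = 9.26e-05). The same pattern, a high level in every CD44LowKitNeg library and no count in any CD44High library, was seen for several members of the list. *Clec14a*, an endothelial C-type lectin, was at 1138, 717 and 1144 CPM in CD44LowKitNeg and at least 1520-fold lower. *Ptprb*, encoding the VE-PTP phosphatase, was at 626, 850.1 and 820.0 CPM and at least 1170-fold lower. *Mmrn2*, a matrix protein that binds CLEC14A, was at 736, 469 and 485 CPM and at least 857-fold lower. The membrane protein genes *Tmem100* and *Tm4sf1*, which are in no list, also went to 0, from 685, 689 and 884 and 562, 983 and 622 CPM (at least 1150- and 1100-fold lower). *Cldn5*, the endothelial claudin, was at 1363, 1112 and 974 CPM in CD44LowKitNeg and at 1 count in the CD44High libraries together, a ratio of 16100 (95% interval from counting error 2890 to 636000).

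Other endothelial genes kept a residue in CD44High. *Tek*, encoding the angiopoietin receptor TIE2, was at 1470.0, 1308 and 1552 CPM in CD44LowKitNeg and 1.28, 5.94 and 2.13 in CD44High (-8.87, SE 0.60, adjusted p = 0.000177, edgeR). *Plvap*, a protein of endothelial diaphragms, was at 2217, 1648 and 1456 against 0.731, 4.99 and 4.26 CPM (-9.08, SE 0.68). *Calcrl*, the receptor for adrenomedullin together with *Ramp2*, was at 1466, 2059.8 and 1879 against 16.998, 20.7 and 12.5 CPM (-6.75, SE 0.34). *Ramp2* itself was at 1594, 1804 and 1669 CPM and then at 0.731, 0 and 0 CPM. *Pecam1*, the CD31 gene, which blood cells also use, had the smallest log2 difference of these, with 1450.2, 1127 and 1005 CPM against 9.69, 40.9 and 21.5 (-5.64, SE 0.56, adjusted p = 5e-04, edgeR). The members of the list that were not called were *Pcdh12* (adjusted p = 0.031), *Podxl* (adjusted p = 0.0735) and *Gpihbp1* (adjusted p = 0.0125).

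Among 22 tested endothelial transcription factors, 9 were called lower and 0 higher. All members of the SOXF family fell: *Sox7* was at 621, 450.3 and 428 CPM, *Sox17* at 314, 262 and 263 and *Sox18* at 381, 374 and 387 in CD44LowKitNeg, and all had 0 counts in CD44High, at least 761-, 426- and 580-fold lower. *Bcl6b* was at 44.6, 40.0 and 36.8 CPM and at 0 in CD44High (at least 61.6-fold lower), and *Elk3*, an ETS repressor, fell from 385, 400.2 and 309.6 to 8.59, 29.7 and 22.9 CPM (-4.16, SE 0.48, adjusted p = 0.00087, edgeR). *Fli1*, *Lmo2* and *Mef2c*, which both endothelium and blood use, were not called. *Fli1* was at 223, 185 and 220.0 against 87.0, 164 and 99.8 CPM (-0.84, SE 0.32, adjusted p = 0.0926), *Lmo2* at 126, 119 and 146 against 199, 127 and 159.8 (0.31, SE 0.28, adjusted p = 0.47) and *Mef2c* at 117, 124 and 90.5 against 194, 320.0 and 287 (1.27, SE 0.30, adjusted p = 0.0171). *Fli1* lay below and *Mef2c* above CD44LowKitNeg in every CD44High library, while *Lmo2* overlapped. *Ets1*, another such factor, was at 84.8, 85.2 and 63.6 against 19.4, 6.66 and 3.07 CPM, below without overlap (-2.99, SE 0.67, adjusted p = 0.0142), and so were *Erg* and *Gata2*, given below.

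The arterial programme followed the endothelial one. Of 9 tested arterial genes, 7 were called lower and all lay below without overlap, against 5.56% and 23.5% of all genes (median with bounds -8.37). *Gja5*, encoding connexin 40, was at 905, 464 and 463 CPM in CD44LowKitNeg and 0 in CD44High (at least 929-fold lower, adjusted p = 0.000226), and *Vegfc* at 266, 210.1 and 229 against 0 (at least 357-fold). *Bmx*, a tyrosine kinase of arterial endothelium, was at 220.3, 244 and 293 against 0, 0 and 2.36 CPM (-8.37, SE 1.04). *Nrp1*, a VEGF co-receptor, was at 1525, 1124 and 1150.3 against 35.8, 94.6 and 65.3 CPM (-4.28, SE 0.41), so that it was still detected in every CD44High library. *Unc5b*, a netrin receptor, was at 107, 172 and 127 CPM and had 3 counts in CD44High, all in S20, a ratio of 631 (95% interval from counting error 216 to 3060). *Efnb2*, the arterial ephrin ligand, was at 355, 458 and 549 CPM against 29.1, 0.475 and 0 and was not called (-5.49, SE 1.45, adjusted p = 0.0264); the spread lay in CD44High, where S20 held nearly all of its reads. Of the venous genes, *Aplnr* and *Nr2f2* reached at most 8.27 and 6.58 CPM in any of the 6 libraries, while *Ephb4* was at 101, 91.1 and 83.7 against 1.28, 0 and 0 CPM and *Flt4* at 93.2, 78.7 and 108 against 0, 3.33 and 0, both called lower. *Flt4* was called without S21, but not without any 1 of the other 5 libraries.

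In the Notch pathway, 8 of 19 genes were called lower, against 5.56% of all genes, and none higher (median with bounds -3.67). Ligand, receptor and target genes were among those called. The ligand *Dll4* was at 197, 159.6 and 105 CPM in CD44LowKitNeg and 0 in CD44High (at least 234-fold lower), and *Dll1* at 30.9, 12.9 and 12.6 against 0 (at least 28.6-fold). The receptor *Notch1* was at 209, 317 and 254 against 4.39, 16.4 and 14.9 CPM (-4.46, SE 0.53, adjusted p = 0.000984, edgeR). Among the targets, *Hey1* was at 378, 299 and 367 against 5.12, 0.238 and 0 CPM and *Hey2* at 235, 157 and 255 against 5.67, 0 and 0, both called lower. The ligand *Jag1* was at 784, 1061 and 1021 against 26.5, 102 and 4.49 CPM and was not called (adjusted p = 0.0118). The receptor *Notch2* went the other way, at 3.50, 20.05 and 18.5 against 165, 149.5 and 43.3 CPM, above without overlap and not called (3.09, SE 0.75, adjusted p = 0.0193). Without S11 or S13, 3 Notch genes were called lower, and 5 without S12.

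Genes of TGF-beta and BMP signalling were called lower for 13 of 29, against 5.56% of all genes, with none higher (median with bounds -2.50). The latent TGF-beta binding protein gene *Ltbp4* was at 453, 499.9 and 452 CPM against 0.914, 0 and 0, *Ltbp3* at 46.5, 54.4 and 33.2 against 0 and the ligand gene *Bmp6* at 22.4, 24.2 and 49.3 against 0 (at least 68.1- and 48.7-fold lower for the latter pair). The BMP receptor *Bmpr2* fell from 254, 382 and 347 to 70.6, 53.7 and 43.7 CPM (-2.55, SE 0.32, adjusted p = 0.00121, edgeR), and the target *Id2* from 503, 588 and 736 to 155, 68.0 and 183 (-2.17, SE 0.39). *Id3*, another target, was at 1048, 1285 and 1286 against 159, 68.2 and 2.84 CPM and was not called (adjusted p = 0.0265). The genes of this list called lower numbered 8 without S11 or S12 and 6 without S13. Of 12 tested Wnt-linked genes, 4 were called lower, among them the antagonist *Dkk2* (167, 195 and 226 CPM against 0, at least 299-fold) and the receptors *Fzd6* and *Fzd4* (at least 96.1- and 76.8-fold), while *Myc*, which is also a growth gene, was called higher, though not without S12, S20, S21 or S22.

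Matrix, junction and caveolar genes fell in part, while 5.56% of all genes were called lower. Matrix genes were called lower for 20 of 34 (median with bounds -5.49), and their sum went from 12940 to 15550 CPM to 97.17 to 574.3. The fibronectin gene *Fn1* was at 2769.8, 3162 and 3158 CPM in CD44LowKitNeg and 108, 53.7 and 18.2 in CD44High (-5.66, SE 0.63, adjusted p = 0.000768, edgeR). *Sparc* was at 2598, 2126 and 1624 against 88.5, 83.4 and 8.98, the collagen gene *Col4a1* at 1174, 1322 and 1034 against 14.4, 8.56 and 0, and the laminin gene *Lama3* at 154, 198 and 231 against 0 (at least 296-fold lower). S22 held the least of *Fn1*, *Sparc* and *Col4a1* among the CD44High libraries. In the junction list 10 of 19 genes were called lower, among them *Tjp1* (458, 394 and 437 against 2.56, 3.09 and 0 CPM), *F11r* (627, 493 and 375 against 17.4, 17.1 and 39.7) and *Ctnnb1*, the beta-catenin gene (1284, 1313 and 1379 against 213, 208 and 86.8). Caveolar coat genes were called lower for 5 of 8, with *Sdpr* at 564, 362 and 643 against 0.914, 0.238 and 0 CPM. *Cav1* was at 1033, 851 and 834 against 43.1, 7.37 and 0 CPM and was not called (adjusted p = 0.0149). Fewer calls were left for these lists without 1 library: 12 matrix genes without S11 and 13 without S12 (24 lower and 1 higher without S22), 6 junction genes without S12 or S13, and 3 caveolar genes without S11, S12 or S13. Of 16 integrin subunits tested, 3 were called lower and 1 higher, with 8 positive and 8 negative (median with bounds -0.52), and none was called lower without S11, S12 or S13 and 1 without S21 or S22. *Itgb1* fell from 1155, 1116 and 769 to 458, 247 and 229.6 CPM (-1.70, SE 0.34) and *Itga5* from 283, 221 and 245 to 9.14, 27.1 and 52.2, while *Itgam*, the CD11b gene of myeloid cells, was at 0 and then 17.5, 19.3 and 61.2 CPM (at least 80-fold higher).

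In hyaluronan biology, to which CD44 belongs as a receptor, 3 of 9 tested genes were called lower and none higher, and *Cd44* was not among them. *Has2*, a hyaluronan synthase gene, was at 23.6, 48.4 and 22.5 CPM in CD44LowKitNeg and had 0 counts in CD44High (at least 48-fold lower, adjusted p = 0.00244, edgeR). *Tmem2*, a cell surface hyaluronidase, was at 583, 584 and 478 against 10.1, 17.6 and 8.98 CPM (-5.49, SE 0.38) and *Hyal2* at 237, 157 and 156 against 19.6, 15.2 and 41.4 (-2.85, SE 0.46). Both were called lower. The scavenger receptor *Stab1* was at 423, 379 and 350.2 against 86.3, 350.4 and 352 CPM with no call (adjusted p = 0.46). Without S11 or S12, 1 gene of this list was called lower, and without S11 1 was called higher.

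Some of the largest differences in CPM were in abundant genes outside the endothelial lists. Apart from those above and *Cd34*, given below with the stem and progenitor markers, the genes called lower with the largest difference in CPM were the nuclear RNA *Malat1* (10317, 16919 and 14636 CPM against 4764, 6289 and 2849; -1.59, SE 0.32, adjusted p = 0.0096, edgeR), the imprinted RNA *H19* (1625, 2930.5 and 2617 against 23.6, 26.9 and 3.07; -7.06, SE 0.79), *Fstl1* (2218, 2088 and 1778 against 60.1, 78.9 and 6.15), *Sparcl1*, *Tspan6* and *Efna1*. On the other side stood the nucleolar chaperone *Npm1* (946, 1171 and 1209.8 CPM against 8506, 4095 and 2875; 2.22, SE 0.39, adjusted p = 0.00581), the ferritin gene *Fth1* (739, 655 and 910.3 against 2155, 3112 and 4524; 2.09, SE 0.31), the chaperone *Hsp90aa1* (339, 385 and 329 against 3821, 1791 and 1511; 2.76, SE 0.38) and the lipid carrier *Apoe* (395, 231 and 340.4 against 795, 3313 and 2268; 2.72, SE 0.50). *Npm1* and *Hsp90aa1* were highest in S20 and *Apoe* was lowest there. Other genes called higher with a large difference in CPM were *Ran*, the GTPase of nuclear transport (386, 398 and 374 against 2763, 1682 and 1177), the translation factor *Eif5a* (574, 429 and 459.6 against 1673, 1613 and 2379), the tubulin gene *Tubb5* (1106, 1192 and 855 against 2089, 2673 and 2563) and the chaperonin subunit *Cct8* (429, 497 and 372 against 2396, 1295 and 1005). *Malat1* had the smallest log2 difference of those given with one here.

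Some blood transcription factors rose in CD44High, *Runx1* among them. *Runx1* had 0 counts in each CD44LowKitNeg library and was at 50.4, 118 and 71.4 CPM in the CD44High libraries, at least 196-fold higher (adjusted p = 0.000638, edgeR). The libraries labelled haemogenic endothelium thus held no detectable *Runx1* mRNA at E11, with a limit of at most 0.451 CPM. Of 23 tested members of the blood factor list, which does not hold *Runx1*, 7 were called higher and 1 lower, against 4.76% and 5.56% of all genes (median with bounds 3.25), and 15 were not called. *Myb*, needed for definitive progenitors, was at 83.7, 52.8 and 46.8 CPM in CD44High and 0 in CD44LowKitNeg (at least 150-fold). *Spi1*, encoding the myeloid factor PU.1, was at 1.94, 1.80 and 4.06 CPM and then 59.9, 173 and 217 (5.85, SE 0.65, adjusted p = 0.000759). The erythroid and megakaryocyte factors *Gata1* and *Klf1* were at 76.9, 34.0 and 70.2 and 151, 20.9 and 131 CPM against 0 (at least 148- and 247-fold), and *Gfi1b* was at 58.9, 26.9 and 80.6 against 0. *Gata3* was the member called lower, with 139, 33.7 and 78.0 CPM against 0, 1.19 and 0, and it was not called without S11, S13 or S20.

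The other members of the heptad, the group of factors that bind together with RUNX1 in blood progenitors, were not called. *Gata2* was at 73.2, 61.3 and 91.7 CPM in CD44LowKitNeg and 13.5, 31.4 and 6.62 in CD44High (adjusted p = 0.0301), *Erg* at 34.4, 56.0 and 37.9 against 2.01, 7.85 and 0.236 (adjusted p = 0.0291), *Lyl1* at 220.3, 157 and 171 against 76.8, 90.1 and 103 (adjusted p = 0.0327), and *Tal1* at 33.3, 34.96 and 32.8 against 19.6, 10.9 and 38.5 (adjusted p = 0.515). *Gata2*, *Erg* and *Lyl1* lay below CD44LowKitNeg in all CD44High libraries. *Runx1* alone went from 0 to a called level.

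Markers of blood stem and progenitor cells moved in both directions. Of 18 tested, 4 were called higher, among them *Runx1*, *Myb* and *Cd48*, and 5 lower. *Cd48*, a surface marker of committed progenitors, was at 71.5, 89.9 and 37.6 CPM in CD44High against 0 (at least 162-fold higher). On the lower side, *Mecom*, a factor of stem cells and arterial endothelium, was at 373, 411 and 421 against 0, 1.43 and 0 CPM (-9.76, SE 0.91, adjusted p = 0.000395, edgeR). *Procr*, encoding the endothelial protein C receptor, was at 221, 106 and 149.7 against 1.64, 1.90 and 0, *Prom1* at 301, 359.6 and 216 against 2.92, 0 and 0, *Hoxa9* at 60.3, 60.9 and 63.4 against 0, 2.14 and 0 and *Cd34* at 1984, 2012 and 1787 against 98.9, 237 and 66.9 (-3.84, SE 0.48). Several of these are used by endothelium as well as by stem cells. *Adgrg1*, also called Gpr56, was at 25.3, 12.2 and 24.9 against 109, 184 and 58.6 CPM, above without overlap and not called (adjusted p = 0.0109, edgeR). *Cd27* and *Ly6a*, the SCA-1 gene, had 0 counts in CD44High, *Gfi1* was at 0, 0.238 and 0 CPM there and *Hlf* at 0, 3.33 and 0. In CD44LowKitNeg *Cd27*, *Ly6a*, *Gfi1* and *Hlf* were low as well, with at most 3.500, 2.96, 3.86 and 15.3 CPM in any of the 6 libraries.

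**Figure D2:**
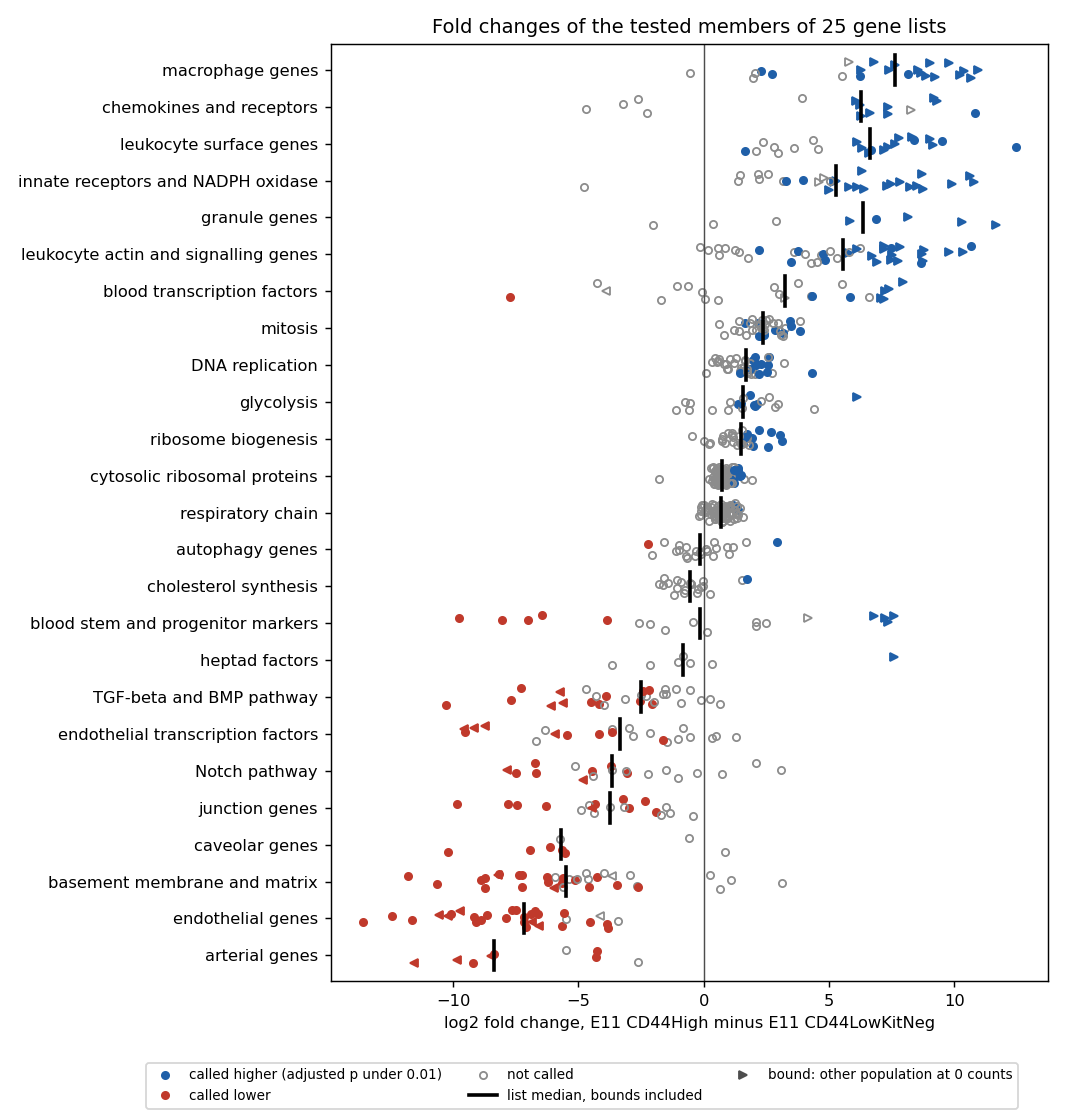
Log2 fold changes (horizontal axis, CD44High over CD44LowKitNeg) of the tested members of 25 gene lists (rows); filled points were called at an adjusted p under 0.01, triangles are bounds for genes without a count in one population, and black bars are list medians with those bounds. The medians of the arterial, endothelial and matrix lists lie to the left of 0 and those of the macrophage, chemokine and leukocyte lists to the right, and the stem and progenitor list has called members on both sides.

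Most general leukocyte genes tested rose in CD44High. *Ptprc*, encoding CD45, was at 401, 384 and 330.0 CPM in the CD44High libraries and had 1 count in the CD44LowKitNeg libraries together, a ratio of 8290 (95% interval from counting error 1490 to 327000; adjusted p = 7.21e-05, edgeR). The leukocyte surface list had 15 of 22 tested members called higher and none lower, with 21 lying above without overlap (median with bounds 6.65). Over all genes 4.76% were called higher and 22.9% lay above. *Cd52* was at 157, 216 and 326 CPM, *Ms4a6c* at 173, 274 and 191 and *Cd33* at 81.7, 127 and 177 in CD44High, each at 0 in CD44LowKitNeg. *Cd53*, a leukocyte tetraspanin, was at 1.94, 0 and 0 against 582, 521 and 385 CPM (9.497, SE 1.11). *Laptm5* differed in being present in both populations, at 118, 149 and 96.5 against 253, 400.4 and 493 CPM (1.66, SE 0.33, adjusted p = 0.00935).

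The leukocyte actin and signalling list had 23 of 40 members called higher, against 4.76% of all genes, and none lower (median with bounds 5.55). *Rac2*, a small GTPase of blood cells, was at 342, 582 and 684 CPM against 0 (at least 1310-fold higher), *Plek* at 196, 585 and 319.9 against 0 (at least 899-fold), and *Nckap1l*, of the leukocyte WAVE complex, at 81.0, 249.9 and 193 against 0 (at least 428-fold). *Coro1a*, a coronin of leukocytes, was at 3.89, 0 and 0 against 283, 547 and 812 CPM (8.67, SE 1.35). *Arhgdib* and *Lcp1* were already expressed in CD44LowKitNeg, at 76.9, 71.3 and 109 and 133, 88.8 and 84.0 CPM, and rose to 849.9, 1047 and 995 and 321, 456 and 635 (3.49, SE 0.28, and 2.21, SE 0.34).

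Macrophage genes were prominent among the genes called higher. Of 23 tested macrophage genes 18 were called higher, against 4.76% of all genes, and none lower (median with bounds 7.63). Of the 27 listed, 18 had no count in any CD44LowKitNeg library, and those of them that were tested could only come out higher. This held in part for the leukocyte surface (11 of 24 listed at 0 there), leukocyte actin and signalling (15 of 40), innate (21 of 31), chemokine (17 of 23) and granule (13 of 18) lists. *Csf1r*, the macrophage colony-stimulating factor receptor, was at 146, 463 and 486 CPM in CD44High, *Cx3cr1*, the fractalkine receptor, at 361, 833 and 833, *C1qb*, a complement subunit, at 241, 717 and 707 and *Ctss*, a cathepsin, at 591, 1176 and 679, all against 0 (at least 894-, 1650-, 1360- and 2000-fold higher). *Adgre1*, the F4/80 gene, was at 139, 224 and 141 CPM and *Fcgr1* at 105, 208 and 331, again against 0. *Csf1r*, *Cx3cr1*, *C1qb* and *Apoe* were lowest in S20. The list summed to 4196 to 11590 CPM in CD44High, lowest in S20, and 869 to 1039 in CD44LowKitNeg, where *Apoe*, *Lgmn* and *Stab1* made up most of it. *Timd4*, *Cd163* and *Marco*, markers of some resident macrophages, were not detected above 0.238 CPM in CD44High. Macrophage genes thus stood in every CD44High library beside *Runx1* and *Myb*, and their part in the results for leukocyte, innate and chemokine genes was not tested.

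Genes of innate sensing and the phagocyte oxidase moved with them: 19 of 29 were called higher, against 4.76% of all genes, and none lower (median with bounds 5.30). The adaptor genes *Tyrobp* and *Fcer1g* were at 378, 839.9 and 973 and 419, 839.7 and 669.5 CPM against 0 (at least 1790- and 1570-fold), the Fc receptor *Fcgr3* at 231, 586 and 359 against 0 and *Cybb*, the catalytic oxidase subunit, at 179, 132 and 222 against 0. *Cyba*, its partner, was present in both populations, at 83.6, 122 and 100.2 against 182, 287 and 316 CPM, without a call (adjusted p = 0.0163). Among chemokines and their receptors, 9 of 15 were called higher, led by *Ccl3* (151, 195 and 439 CPM against 0), *Ccr1* (224, 267 and 226) and *Ccr2* (59.6, 42.3 and 101). *Cxcl12*, the stromal and arterial chemokine, was at 170.2, 175 and 135 against 64.7, 13.8 and 0 CPM and was not called (adjusted p = 0.163).

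Of 28 cytokine receptor and signalling genes, 7 were called higher and 2 lower, and without S21 these were 4 and 1. *Lifr* was not called without S11, S12, S13 or S21. Besides *Csf1r*, the granulocyte receptor *Csf3r* (35.1, 79.4 and 71.2 CPM) and the interleukin 10 receptor *Il10ra* (19.9, 60.9 and 40.2) were gained from 0 (at least 152- and 98.7-fold). *Osmr* went the other way, from 71.6, 62.6 and 81.9 CPM to 0 (at least 110-fold lower), and its relative *Lifr* fell from 206, 267 and 155 to 8.96, 28.8 and 29.6 (-3.23, SE 0.51). *Jak1*, the kinase they share, was at 134, 171 and 119 against 162, 187 and 111 CPM with no call (adjusted p = 0.824).

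Genes of several blood lineages were present in the CD44High libraries in unequal amounts. *Lyz2*, the myeloid lysozyme gene, was at 1813, 581 and 1610.5 CPM and had 0 counts in CD44LowKitNeg, at least 3270-fold higher and the largest bound among the genes called higher with at least 50 CPM (adjusted p = 0.000288). *Mpo*, myeloperoxidase, was at 561, 803 and 175 CPM and *Prtn3*, proteinase 3, at 142, 75.1 and 128, both against 0. *S100a8* and *S100a9*, genes of maturing neutrophils, were at 5832, 0 and 1668 and 664, 0 and 65.7 CPM, so that S21 had no read of either while S20 held the most. Both were at 0 in CD44LowKitNeg and were not tested, because such a gene passes the filter on low counts only with enough reads in every CD44High library. The erythroid membrane gene *Rhag* was at 193, 0 and 68.6 CPM, again highest in S20 and lowest in S21. *Cpa3*, a mast cell protease, was at 134, 36.6 and 0.473 and *Pf4*, a platelet chemokine, at 74.4, 175 and 31.4 CPM (at least 229-fold higher, adjusted p = 0.00175). Of the 8 granule genes tested 5 were called higher, of 14 megakaryocyte genes 3, with *Vwf* lower, of 6 erythroid genes 2, which were *Gata1* and *Klf1*, and of 3 lymphoid genes 1, the B cell linker *Blnk* (16.1, 4.04 and 36.2 CPM). *Blnk* was not called without any 1 of the 6 libraries, 1 megakaryocyte gene was called higher without S11, S13 or S21, and 1 erythroid gene without S11 and 4 without S21. Embryonic globin *Hbb-y* was at 16.6, 51.8 and 21.04 CPM in CD44LowKitNeg and 3.11, 15.5 and 0 in CD44High; reads of near-identical globin genes may be left out of such counts, so these levels are uncertain.

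**Figure D3:**
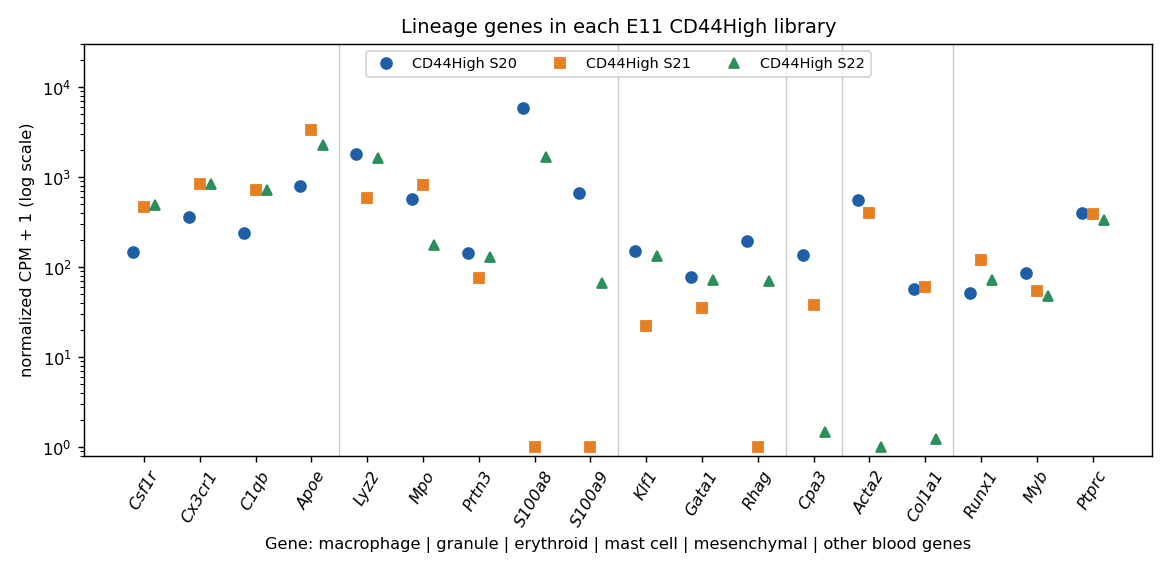
Normalized CPM + 1 (log axis) of single genes in the 3 E11 CD44High libraries (symbols), grouped by lineage. *Ptprc*, *Runx1* and *Myb* are close together in the 3 libraries, while *S100a8*, *S100a9* and *Rhag* are at 0 in S21 and *Acta2* is at 0 in S22.

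The unequal lineage genes were not limited to blood. In CD44High, 14 genes were at 0 in one library and at 100 CPM or more in another, against 0 in CD44LowKitNeg and 0 in E11 CD44Neg. They included the neutrophil genes *S100a8* and *S100a9*, the erythroid *Rhag*, and the smooth muscle and stromal genes *Acta2*, at 552, 401 and 0 CPM, *Rgs5*, at 117, 41.4 and 0, and *Postn*, at 137, 19.3 and 0. These 3 were at 0 in S22, and *Col1a1* was at 55.9, 58.5 and 0.236 CPM. The mesenchymal list summed to 0.2364 to 340.1 CPM over the CD44High libraries, lowest in S22, and to 29.04 to 100.5 in CD44LowKitNeg, and none of its 6 tested members was called, while without S22 1 of 9 tested was called higher, as was 1 of 13 with no filter on low counts. Over all genes the biological coefficient of variation was 0.617 among the CD44High and 0.706 among the CD44LowKitNeg libraries, so the spread as a whole was not larger in CD44High. Epithelial genes summed to 33.67 to 97.54 CPM in CD44LowKitNeg and 3.783 to 25.41 in CD44High, and 7 of 10 neural genes had no count in any CD44LowKitNeg library. *Stmn2*, which makes up nearly all reads of the neural list in CD44LowKitNeg and was called lower in CD44High, was at 228, 679 and 374 against 1.64, 5.23 and 0 CPM (adjusted p = 0.00175, edgeR). Of the lists not described elsewhere, YAP-linked genes had 2 of 11 called lower, contractile genes 1 called in each direction of 11, and germ cell and sex-linked genes none. The YAP-linked calls were lost without S11, S12, S13 or S21 and numbered 5 without S20, and the contractile calls were lost without S11, S12, S13 or S21.

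Stretches upstream of the genes with the largest bounds are shown because these genes went from high levels in every library of one population to no count in the other. RefSeq (GRCm38.p6, the build of the deposited counts under its other name, mm10) gave promoters for *Lyz2* and *Ctss*, gained in CD44High, and for *Gja4* and *Clec14a*, lost there. *Vwf* and *Cdh5* ranked between the last pair and had no promoter entry. The 250 bases before each gene start are printed 5′ to 3′ on the strand of the gene. They were searched on both strands for a RUNX motif spelled TGTGGT, a PU.1 motif spelled GAGGAAGT, a motif of the GATA factors spelled AGATAA, a SOX motif spelled AACAAT, an ETS motif spelled CCGGAAGT, an AP-1 motif spelled TGAGTCA and an E-box spelled CAGCTG, which reads alike on both strands. The PU.1 and ETS motifs share the letters GGAAGT, and matches are in capitals.
*Lyz2* (chr10:117282273-117282522, minus strand): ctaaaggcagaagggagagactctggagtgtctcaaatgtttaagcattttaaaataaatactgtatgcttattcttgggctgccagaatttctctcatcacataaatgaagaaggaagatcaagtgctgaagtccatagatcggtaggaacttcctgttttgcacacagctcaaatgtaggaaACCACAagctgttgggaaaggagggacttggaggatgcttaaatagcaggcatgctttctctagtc
*Ctss* (chr3:95526536-95526785, plus strand): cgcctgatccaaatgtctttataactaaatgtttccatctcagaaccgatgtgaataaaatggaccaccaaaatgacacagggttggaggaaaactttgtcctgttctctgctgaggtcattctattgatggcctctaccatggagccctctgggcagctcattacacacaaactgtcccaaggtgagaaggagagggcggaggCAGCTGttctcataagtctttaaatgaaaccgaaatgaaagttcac
*Gja4* (chr4:127314040-127314289, minus strand): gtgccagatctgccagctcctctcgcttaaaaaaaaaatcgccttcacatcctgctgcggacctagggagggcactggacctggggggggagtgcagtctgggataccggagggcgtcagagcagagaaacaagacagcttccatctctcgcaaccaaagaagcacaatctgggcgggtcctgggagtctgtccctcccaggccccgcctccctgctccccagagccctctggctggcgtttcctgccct
*Clec14a* (chr12:58269259-58269508, minus strand): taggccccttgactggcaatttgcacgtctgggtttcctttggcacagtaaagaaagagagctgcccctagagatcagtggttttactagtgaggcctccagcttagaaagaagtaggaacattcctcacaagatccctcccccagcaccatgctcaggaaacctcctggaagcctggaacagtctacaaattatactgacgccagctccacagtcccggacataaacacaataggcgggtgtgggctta
*Lyz2* held 1 RUNX match, on the opposite strand 66 bases before the start, and *Ctss* 1 E-box match 46 bases before it. The windows of *Gja4* and *Clec14a* held none of the motifs. Over the 9073 tested genes with a promoter in the table (80.7%), 10.7% held the RUNX letters and 10.9% the E-box letters in the same stretch, so a match in 1 gene is a description. Promoters were found for 79.8% of the genes called higher and 75.2% of those called lower, under the 80% needed, so the comparison of motif shares between genes called higher and lower is void.

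Genes of cell division lay mostly above CD44LowKitNeg in CD44High, and fewer passed the test. All 42 DNA replication genes had a positive log2 fold change (median 1.69), 35 lay above without overlap, against 22.9% of all genes, and 12 were called higher. Of 37 mitosis genes, all were positive (median 2.38), 35 lay above and 11 were called. *Mcm10*, which acts in activating the replicative helicase, was at 3.76, 5.01 and 1.35 CPM in CD44LowKitNeg and 52.5, 62.8 and 89.6 in CD44High (4.32, SE 0.61, adjusted p = 0.00209, edgeR). *Rrm2*, a ribonucleotide reductase subunit, was at 81.5, 74.8 and 42.4 against 553, 264 and 389.9 (2.601, SE 0.39). *Tpx2*, a spindle assembly factor, was at 15.3, 20.9 and 16.983 against 202, 187 and 194 (3.45, SE 0.30) and *Aurka*, a mitotic kinase, at 4.67, 14.4 and 23.7 against 168, 178 and 261 (3.83, SE 0.59). The replication genes summed to 2210 ± 706.7 CPM (SD, n = 3) in CD44LowKitNeg and 6753 ± 937.4 in CD44High, and the mitosis genes to 1646 ± 678.8 and 8552 ± 794.2. Leaving out any 1 library left 0 to 5 replication and 4 to 9 mitosis genes called, with the fewest replication genes without S11 and the fewest mitosis genes without S21, while 41 or more replication genes and all mitosis genes stayed positive. With glmTreat 2 replication and 5 mitosis genes were called higher, with the 9 E11 libraries in the fit 20 of each, with DESeq2's Wald test 23 and 25, and with all 22 libraries 27 of each.

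The regulators of the G1 phase did not move as a group. *Cdk6*, the G1 kinase of blood progenitors, rose from 31.2, 42.3 and 26.2 to 194, 256 and 169 CPM (2.63, SE 0.33, adjusted p = 0.00133, edgeR), and *Myc* from 37.7, 26.3 and 12.6 to 159, 154 and 164 (2.63, SE 0.43). Cyclin D2, *Ccnd2*, fell from 178, 128 and 186 to 35.8, 24.7 and 46.8 CPM (-2.19, SE 0.35). The inhibitor *Cdkn1c* was at 187, 166 and 127 against 17.4, 2.85 and 0 CPM, below without overlap but not called (adjusted p = 0.0221). *Ccnd2* was not called without S11, S13, S20 or S21, and 1 gene was called higher without S12, S20, S21 or S22. Over the 23 genes the median log2 fold change was 0.30.

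Genes of ribosome production lay mostly above CD44LowKitNeg as well. Of 32 ribosome biogenesis genes, 31 were positive, 27 lay above without overlap and 10 were called higher (median 1.501), against 22.9% above and 4.76% called higher over all genes. *Wdr12*, of the PeBoW complex, went from 19.6, 37.8 and 31.0 to 261, 249.6 and 264 CPM (3.13, SE 0.34, adjusted p = 0.000657, edgeR), *Dkc1*, the pseudouridine synthase, from 76.0, 32.5 and 31.1 to 595, 252 and 306 (3.05, SE 0.50) and the nucleolin gene *Ncl* from 329, 351 and 321 to 1848, 1014 and 928 (1.92, SE 0.31). S20 held the highest level of *Dkc1* and *Ncl*, as it did of *Npm1*. For cytosolic ribosomal proteins 77 of 78 genes were positive (median 0.75) and 11 were called higher, with *Rps2* at 759, 801 and 695 against 1822, 1889 and 2443 CPM (1.45, SE 0.22). These genes have many processed pseudogenes, to which some of their reads may have been lost. Leaving out any 1 library left 1 to 6 biogenesis and 0 to 8 ribosomal protein genes called, and no ribosomal protein gene was called without S11, S12, S13 or S21. The ribosomal protein genes called higher numbered 0 with glmTreat, 28 with limma voom, 34 with DESeq2's Wald test, 35 with the 9 E11 libraries, 40 at an adjusted p under 0.05 and 44 with all 22 libraries, and the biogenesis genes 2 with glmTreat, 16 with DESeq2's Wald test or at an adjusted p under 0.05 and 17 with all 22 libraries.

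**Figure D4:**
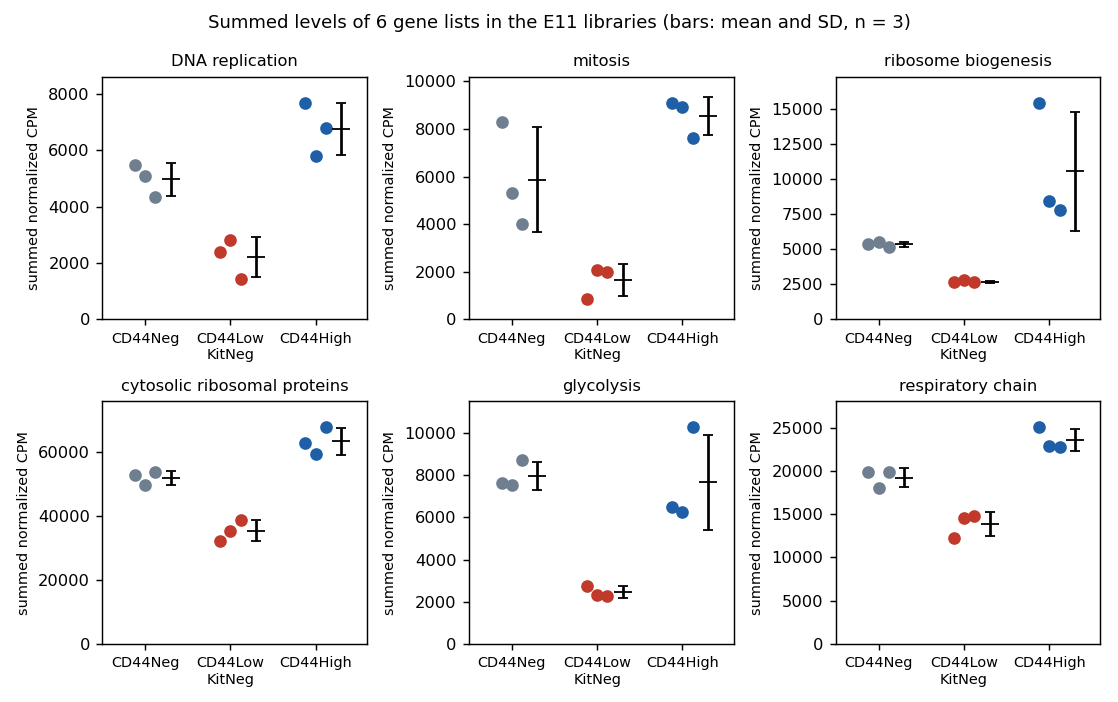
Summed normalized CPM of 6 gene lists (panels) in each E11 CD44Neg, CD44LowKitNeg and CD44High library (points), with the mean and SD beside them (n = 3). For each list the 3 CD44LowKitNeg libraries sit lowest and do not overlap CD44High or CD44Neg.

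Some glycolytic genes rose too. Of 21 glycolytic genes 7 were called higher and none lower (median 1.57): *Ldha* was at 633, 301 and 513 CPM in CD44LowKitNeg and 1936, 1691 and 2742 in CD44High (2.14, SE 0.34, adjusted p = 0.00334, edgeR), *Gapdh* at 143, 203 and 131 against 541, 619 and 768 (2.01, SE 0.28) and *Tpi1* at 225, 169 and 238 against 691, 590.1 and 990.3 (1.85, SE 0.29). *Hk3*, the hexokinase of myeloid cells, was gained from 0 to 14.4, 28.3 and 42.8 CPM (at least 69.8-fold). Leaving out any 1 library left 1 to 6 glycolytic genes called, with the fewest without S11 or S13, and 1 was called with glmTreat and 12 with DESeq2's Wald test or all 22 libraries. Of 73 respiratory chain genes 68 were positive and 46 lay above without overlap, against 22.9% of all genes (median 0.70), and 2 passed the threshold, *Atp5a1* (571, 436 and 486 against 1385, 1136 and 1315 CPM; 1.36, SE 0.23) and *Atp5b* (939, 705 and 742 against 1711, 1674 and 1923; 1.15, SE 0.22). These 2 calls were not more frequent than the 4.76% called higher over all genes. The number of respiratory chain genes called higher depended on the fit: 0 with glmTreat, 5 with limma voom, 10 with the 9 E11 libraries in the fit (849 of all 11942 genes), 11 with DESeq2's Wald test (1223 of 11245), 16 at an adjusted p under 0.05 (1317 of 11245) and 24 with all 22 libraries (1164 of 14609). For the TCA cycle 3 of 21 were called higher (median 0.87), none without S11, S12, S13 or S21, 1 without S20 or S22, none with glmTreat and 10 with all 22 libraries in the fit. The respiratory calls were lost without the same 4 libraries, numbered 1 without S20 and numbered 5 without S22. The cholesterol list had a median of -0.56 with 1 gene called, *Ebp*, higher, and autophagy genes a median of -0.13 with *Bnip3* higher and *Map1lc3a* lower. None of these last 3 genes was called without any 1 of the 6 libraries. Calls in the cholesterol and autophagy lists were no more frequent than the 10.3% over all genes.

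The lysosomal list divided by member. The cathepsin genes *Ctsc* (94.2, 108 and 159.6 against 1027, 772 and 1578 CPM) and *Ctsb* (512, 435 and 572 against 970.3, 2235 and 1870.1) rose by 3.22 (SE 0.36) and 1.74 (SE 0.33) on the log2 scale, together with *Ctss* and *Lgmn*. *Ctsh* fell from 964, 569.7 and 716 to 39.8, 50.4 and 97.4 CPM (-3.58, SE 0.42, adjusted p = 0.000897, edgeR) and *Ctsl* from 1349, 1267 and 1159 to 356, 409 and 219 (-1.94, SE 0.28). Of this list, 2 genes were called higher without S11, S12, S13 or S21, and 1 lower without S11, S12 or S13. For antigen presentation, 2 of 13 were called higher, *Cd74*, the class II invariant chain, at 0 in CD44LowKitNeg and 7.68, 7.13 and 11.1 CPM in CD44High, and the immunoproteasome subunit *Psmb8*, with 3.24, 4.37 and 0 against 52.5, 114 and 149 CPM. *B2m* was at 1126, 1664 and 1295 against 1989, 2642 and 2043 CPM without a call (adjusted p = 0.0638). With 1 library left out, 1 antigen presentation gene was called without S13 and none without any other. Interferon-linked genes had 2 called higher and 1 lower of 20: *Ifi30*, a lysosomal reductase of antigen-presenting cells, was at 0, 1.29 and 0 against 179, 418 and 428 CPM, *Irf1* at 5.06, 2.70 and 6.01 against 27.1, 37.3 and 47.0, and *Ifitm2*, lower, at 514, 664 and 699 against 145, 250.3 and 146. *Ifitm2* was not called without S11, S12, S13, S20 or S22, and 1 of the list was called higher without S11, S13, S20 or S21. The stress-linked list had *Hsp90aa1* alone called among 17, no more than the 10.3% called over all genes. *Hsp90aa1* was not called without S11, S12 or S13, and *Fos* was at 163, 67.6 and 191 against 180.4, 361 and 298 CPM (adjusted p = 0.138).

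The E11 CD44Neg libraries, the other VE-Cad-positive population with libraries from this stage, are shown side by side without a test. Endothelial genes were present there, with *Cdh5* at 334 ± 90.9 CPM (SD, n = 3), *Sox17* at 157 ± 25.8 and *Plvap* at 1281 ± 159, and the arterial sum was 1274 ± 275.5 CPM against 5514 ± 547.7 in CD44LowKitNeg and 123.8 ± 46.2 in CD44High. *Hey2* was at 4.50 ± 5.59 CPM and *Fbln5*, an elastic fibre gene, at 1.08 ± 1.10 in CD44Neg, both below every CD44LowKitNeg library (235, 157 and 255 and 286, 489 and 466 CPM). The growth lists had another order: replication genes summed to 4966 ± 582.4 CPM in CD44Neg, ribosome biogenesis genes to 5356 ± 183.7 and glycolytic genes to 7967 ± 651.6, each above every CD44LowKitNeg library. For glycolysis the CD44Neg libraries lay within the range of CD44High. CD44LowKitNeg therefore had the lowest of the sums plotted among the E11 populations.

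**Figure D5:**
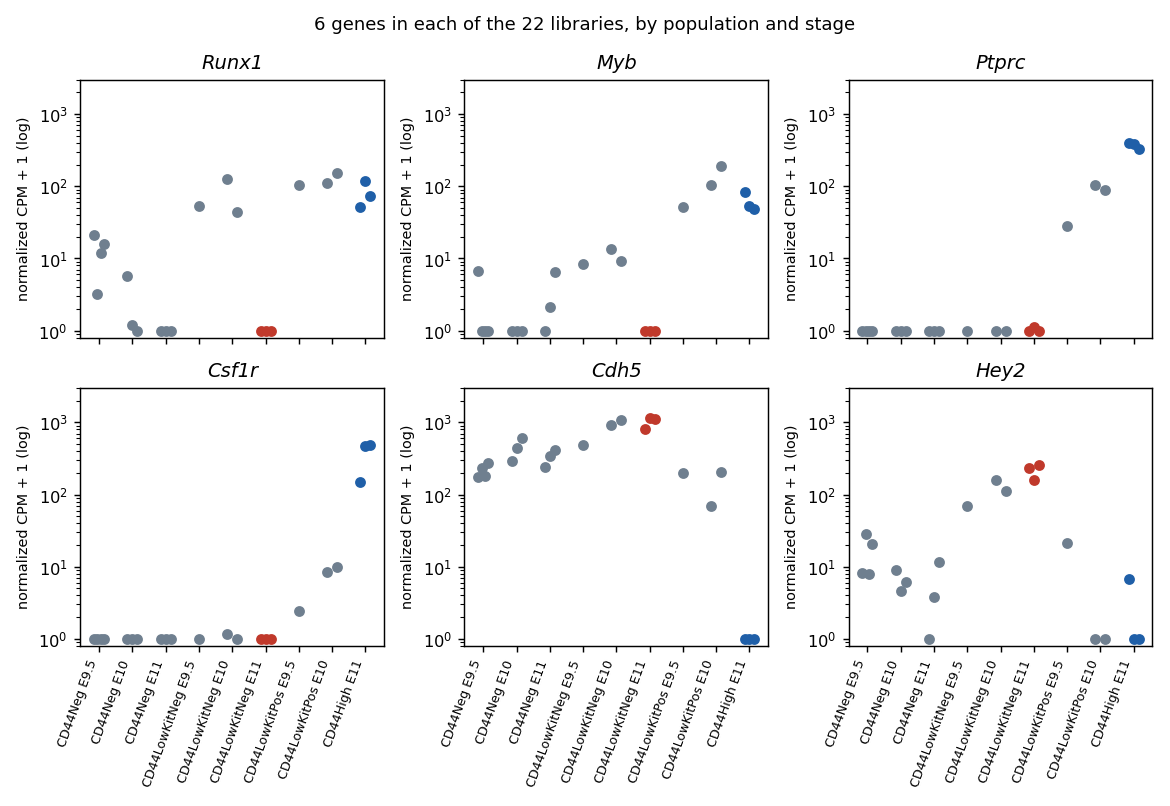
Normalized CPM + 1 (log axis) of 6 genes in each of the 22 libraries (points), ordered by population and stage; red marks E11 CD44LowKitNeg and blue E11 CD44High. *Runx1* and *Myb* are at 0 in E11 CD44LowKitNeg but present in that population at E9.5 and E10, and *Csf1r* is above 100 CPM in CD44High alone.

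Along the other populations, the levels placed CD44High at one end for most of these genes. *Ptprc* was at 27.3 CPM in the CD44LowKitPos library of E9.5 and 105 and 87.5 in those of E10, below every CD44High library. *Csf1r* was at 1.40, 7.52 and 9.04 CPM in the same libraries, against 146, 463 and 486 in CD44High. *Runx1* and *Myb* showed another order: they were at 102, 109 and 153 CPM and at 51.1, 105 and 191 CPM in CD44LowKitPos, with ranges that overlapped CD44High. *Cdh5* was at 198, 68.6 and 201 CPM in CD44LowKitPos, between the populations compared here. No CD44LowKitPos library of E11 was analysed here, and the labels of each stage carry their own date. Population, stage and label date therefore cannot be told apart in these last values.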

How the data were processed

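The unit was whole-number read counts per gene, one deposited table for all 22 libraries. Per the labels and the study's methods, the authors sorted 25 cells per library, made cDNA from poly-adenylated RNA by Smart-seq2, sequenced Nextera libraries on a NextSeq 500, and aligned and counted reads with STAR and htseq-count (mm10; versions and the strand setting are not given in the sources used here). Preamplification without molecular identifiers means that reads are not independent molecules. Levels of antisense and overlapping genes, and of members of gene families, are also uncertain. The table holds no rows of mitochondrially encoded genes.

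From these counts, the 6 libraries of the E11 CD44High and CD44LowKitNeg groups were compared with edgeR 4.0.16 (R 4.3.3): filterByExpr (minimum count 10, minimum total 15) left 11245 of 24454 genes, TMM scaling was applied, and the quasi-likelihood test compared the groups with Benjamini-Hochberg adjustment and a call at an adjusted p under 0.01. SE is the log2 fold change divided by the root of F, and the prior count was 0.125. CPM of libraries outside the fit were scaled to its reference library. A bound divides the mean CPM of the expressing population by the mean CPM of 3 counts per library. All pairs of libraries of a population differed by more than read-counting noise (chi-square per degree of freedom of 33.7 to 74.1), so none was the same reads deposited again; this does not show that they are independent biological replicates. The scripts were tested on simulated counts.

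The comparison, the 48 gene lists and the named genes were chosen with earlier results of these data known. Named were the sorting genes, the 15 called genes per direction with the largest difference in CPM, the 10 with the largest log2 fold change at a mean of at least 50 CPM, and, per list, up to 4 called members per direction by log2 fold change, up to 4 members by level and all members of lists of at most 10 genes. Not all of these are printed, and a few members of the lists are not reported here. *Pecam1*, *Pcdh12*, *Podxl*, *Gpihbp1*, *Gfi1b*, *Adgrg1*, *Cd27*, *Ly6a*, *Gfi1*, *Hlf*, *Adgre1*, *Fcgr1*, *Timd4*, *Cd163*, *Marco*, *S100a9*, *Postn*, *Hbb-y*, *Cdkn1c*, *Ets1*, *Notch2* and *Cebpb* fall outside this rule and were chosen after their values were seen. Alternatives were DESeq2 size factors, upper-quartile scaling, no filter or a stricter one, wider fits, DESeq2 1.42.0 and limma 3.58.1 tests, another threshold, glmTreat, thinned counts, counts without *Rn45s* and leaving out each library.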

Additional observations from a re-analysis of the deposited data

Results flagged for a closer look

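Blood genes without a count in any E11 CD44LowKitNeg library were present in the same gate at earlier stages, in libraries that the comparison did not use. Of 55 blood factor and progenitor genes measured, 17 had 0 counts in all E11 CD44LowKitNeg libraries, and 3 of these had more than 3 counts in every one of the 3 earlier CD44LowKitNeg libraries. *Runx1* was at 52.4 CPM in the E9.5 library and at 126 and 43.4 CPM in the E10 libraries. *Myb* was at 7.44 CPM at E9.5 and at 12.4 and 8.13 CPM at E10. *Cebpb*, a factor of myeloid cells, was at 0.67, 1.80 and 4.59 CPM in the same order, its lowest value being 0.666. These levels were not tested against E11. The labels of the E9.5 and E10 libraries differ from E11 in stage and also in the date they carry, which is shared by all libraries of a stage. Stage and label date therefore cannot be told apart, and only 1 CD44LowKitNeg library is from E9.5.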

How the results depend on the processing

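The number of genes called depended on the libraries in the fit, the test and the threshold. With the 9 E11 libraries in the fit, 1847 of 11942 genes tested were called (849 higher, 998 lower), and with all 22 libraries 2367 of 14609 (1164 and 1203), against 1160 of 11245 with the 6 libraries. DESeq2's Wald test called 2622 (1223 and 1399) and limma voom 1673 (845 and 828). An adjusted p under 0.05 gave 2759 (1317 and 1442) and glmTreat against a log2 fold change of 1 gave 769 (327 and 442). Leaving out 1 library at a time gave 522 to 859 genes, with 251 to 368 higher and 271 to 491 lower. The other scalings, filters, thinned counts and the counts without *Rn45s* kept these counts within 1.5 times, and no alternative moved the median of all genes by over 0.1. The counts called in the gene lists moved with the fit as well. Over the alternatives that left out no library, genes called lower numbered 8 to 16 for endothelial transcription factors, 7 to 13 for Notch, 4 to 8 for Wnt-linked, 2 to 7 for YAP-linked and 0 to 7 for integrin genes, and 0 to 3 for the heptad and for cholesterol synthesis. Genes called higher numbered 7 to 12 for blood transcription factors, 0 to 6 for antigen presentation, 1 to 8 for interferon-linked, 2 to 6 for lysosomal, 2 to 5 for megakaryocyte, 2 to 4 for erythroid and 1 to 4 for stress-linked and integrin genes. None of the genes called with all 6 libraries and tested under an alternative changed direction there. Of the 146 called genes named and followed, 89 were called under every alternative and 111 under every alternative with all 6 libraries. Among the 178 genes followed, direction changed for some that were not called: *Acta2* to -1.36 (limma voom), and, over the fits without 1 library, *Nr2f2* (-2.225 to 1.13, negative without S13 or S20), *Kit* (-0.089 to 0.757, negative without S20) and *Jak1* (-0.063 to 0.292, negative without S21). The cause was not tested. No paired analysis was possible because each library carries its own replicate number and the populations share none. Libraries of 25 cells with no molecular identifiers limit what a count of 0 shows, and 3 libraries per population limit the estimate of the spread.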
